A study of Homo sapiens with 34 samples.

Results

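The BCL2 family decides at the mitochondrion whether a cell survives or undergoes apoptosis. The 10 family genes described here were chosen by symbol for their roles, with earlier results of these data known. They comprise 4 survival members (*BCL2*, *BCL2L1*, *MCL1* and *BCL2A1*), 4 BH3-only death members (*BCL2L11*, *BBC3*, *PMAIP1* and *BMF*) and 2 effectors (*BAX* and *BAK1*). All 10 were among the 17587 genes listed in at least 1 of the 6 comparisons of the study. Of the 10, 9 were among the 13307 genes listed in all 6, and *BCL2A1* was not listed in either comparison of BV-173 cells, which left 58 of 60 pairs of member and comparison.

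RNA-seq was performed on 34 samples of 3 established human B-ALL cell lines. NALM-6 cells carry the ETV6-PDGFRB fusion, RS4;11 cells MLL-AF4, and BV-173 cells BCR-ABL. In each line, cells carrying the *CCND3* shRNA or a scrambled shRNA from a lentiviral vector (pRSI12-U6-shUbiC-TagRFP) were isolated on day 4 after transduction. Separate cultures of the same line received 1 µM palbociclib, an inhibitor of CDK4 and CDK6, or the solvent DMSO for 3 days. The question behind this design was which effects of losing cyclin D3 are not shared by inhibiting its kinases. There were 3 samples in 10 of the 12 groups and 2 in the others, namely NALM-6 with the *CCND3* shRNA and BV-173 with DMSO. Knockdown and palbociclib had their own controls, and they also stand apart in transduction, sorting and time, which cannot be told apart from the choice of target. A single shRNA (shC3-1) was sequenced, so effects of this shRNA on other transcripts and of losing *CCND3* cannot be told apart either.

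For every gene the authors deposited 1 level per group, a signal scaled within each comparison. The levels therefore carry no spread between replicates, the depth of the samples is unknown, and no SD is given for any level. Ratios are log2 of the treated over the control level, and a gene is counted when its levels stood at least 1.5-fold apart (0.58 on the log2 scale), without a replicate check. The 6 tables were normalized separately, so that levels set side by side across comparisons carry that limit. In such bulk RNA, a smaller share of cells expressing a gene and less RNA per cell cannot be told apart.

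As background, the survival members hold the effectors BAX and BAK in check and capture BH3-only proteins in a groove on their surface. BH3-only proteins are induced or activated by stress, growth factor loss or DNA damage, and they neutralize the survival members or engage the effectors directly. Once freed, BAX and BAK permeabilize the outer mitochondrial membrane, cytochrome c is released and caspases are activated. Lymphoid cells depend strongly on BCL2 and MCL1, and BCL2 is a drug target in leukemia.

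*CCND3*, the knockdown target (NCBI gene 896), had levels of 4727 with the *CCND3* shRNA and 19499 with scrambled shRNA in NALM-6 cells. The corresponding levels were 3353 and 16178 in RS4;11 cells and 2060 and 6619 in BV-173 cells. The target was thus at 24.2%, 20.7% and 31.1% of its control, and the shRNA labels held in all 3 lines. With palbociclib the *CCND3* level was 78%, 81.8% and 76% of that with DMSO in NALM-6 cells, RS4;11 cells and BV-173 cells.

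The levels of the members were first ordered per length, as level per kilobase of the transcript length given in each table. *MCL1* had the highest level per kilobase of the 10 members in 5 groups, *BAX* in 4 groups and *PMAIP1* in 3 groups. The level of *BAX* led in every BV-173 group, from 1171 to 1875 per kilobase. Among the survival members *MCL1* led in 10 of the 12 groups, and *BCL2L1* led in the DMSO and palbociclib groups of BV-173 cells (11 groups with the longest GENCODE transcript, as *MCL1* then led with palbociclib). With the longest GENCODE transcript in place of the table length, *MCL1* led in 5 groups, *PMAIP1* in 6 and *BAX* in 1, so that the order of these 3 neighbours depended on the length used. The *BCL2* rank moved as well, from 6 to 9 in BV-173 cells with scrambled shRNA and from 5 to 7 in RS4;11 cells with the *CCND3* shRNA. The medians over the groups were 1244 per kilobase for *MCL1*, 1098 for *PMAIP1*, 906 for *BAX*, 662 for *BCL2L1*, 386 for *BAK1* and 296 for *BCL2*. They were lower for *BMF* (194), *BBC3* (178) and *BCL2L11* (165), and *BCL2A1* stood last in each of its 8 groups with a median of 6.32. These medians pool unlike lines, and *BCL2* ran from 85.9 per kilobase in NALM-6 cells with the *CCND3* shRNA, below *BCL2L11* (211) and *BBC3* (132), to 751 in RS4;11 cells with scrambled shRNA. Without replicate values it could not be said which neighbours in this order lay within their spread. Set against all genes of the same group, *MCL1* was above 85.5% to 94.8% of genes per length and *BCL2A1* above 8.49% to 41.3%.

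**Figure D1:**
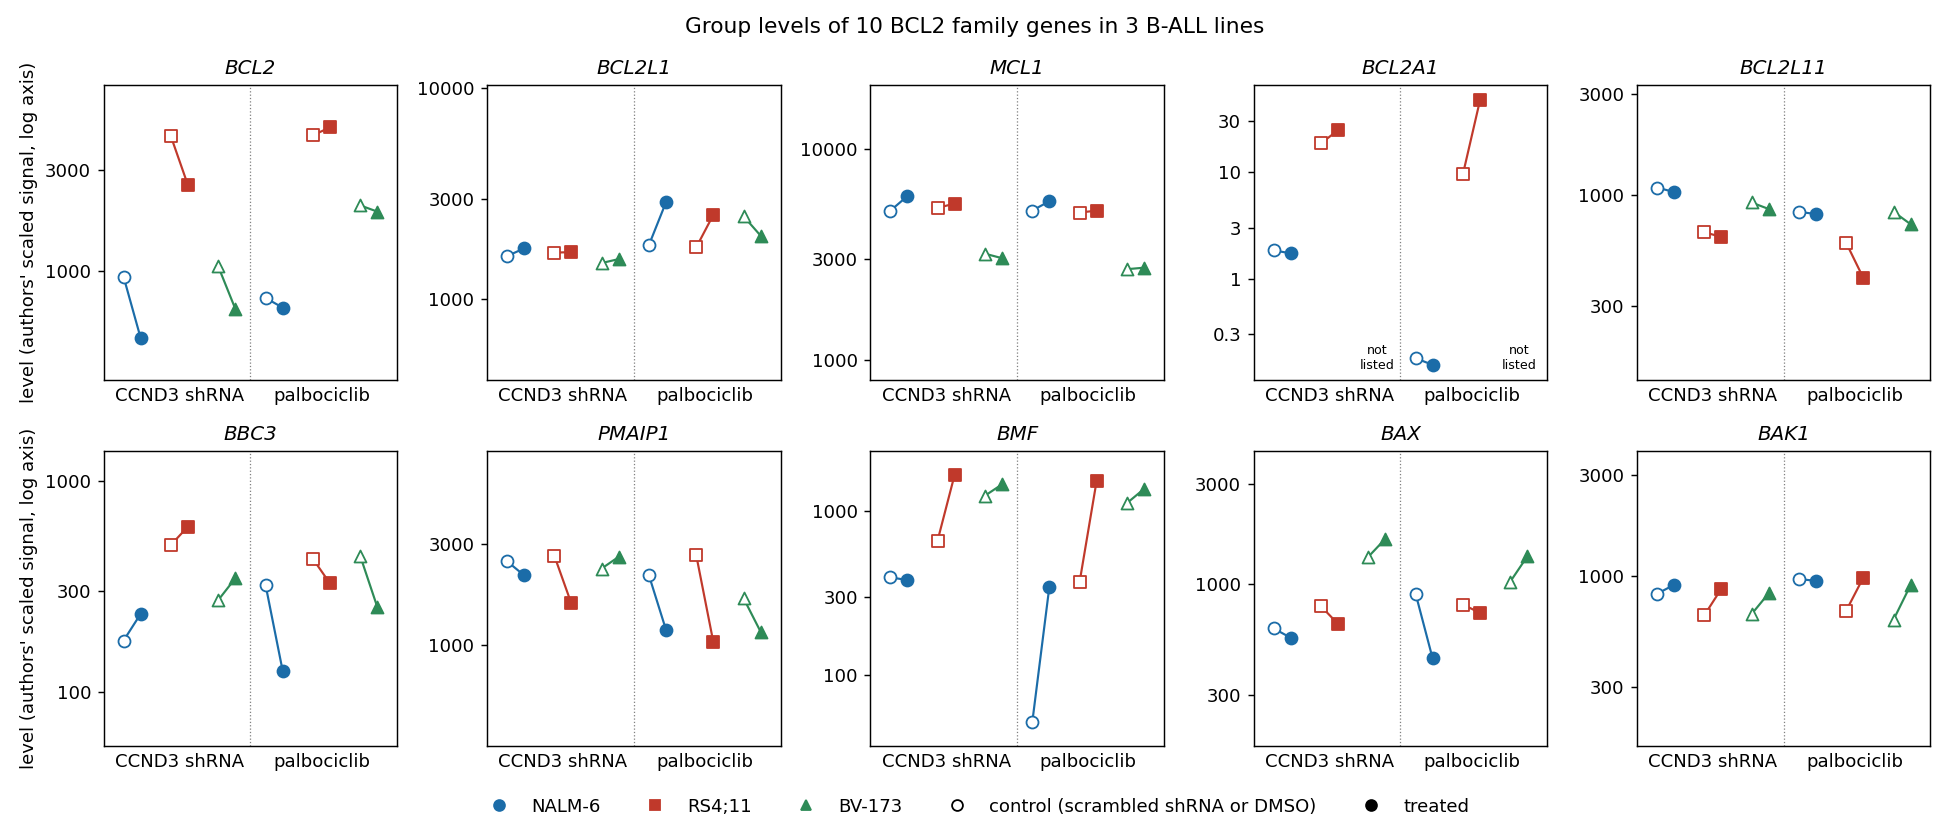
Levels of the 10 members in the 12 groups (vertical log axis: the authors' scaled signal per group, 1 value each; open symbols: scrambled shRNA or DMSO; filled symbols: *CCND3* shRNA or palbociclib; colours and shapes: cell lines). *BCL2* was lower with the *CCND3* shRNA in each line (482, 2544 and 662), whereas the steepest line belonged to *BMF* in NALM-6 cells with palbociclib (51.3 to 343).

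*BCL2* (NCBI gene 596, chromosome 18 of GRCh38.p14, 63123346 to 63320090) encodes the founding survival protein of the family. Its level with the *CCND3* shRNA was 482 in NALM-6 cells, 2544 in RS4;11 cells and 662 in BV-173 cells. With scrambled shRNA it was 938, 4332 and 1050 in the same order. All 3 knockdown levels were thus below their controls, although the lines themselves were far apart. With palbociclib the *BCL2* level was 671, 4778 and 1909, and with DMSO it was 745, 4386 and 2042, so that treated and control cells lay close together in each line. The log2 ratio after knockdown was −0.96, −0.77 and −0.67 in NALM-6 cells, RS4;11 cells and BV-173 cells, or 51.3%, 58.7% and 63.1% of control. With palbociclib it was −0.15, 0.12 and −0.10. Among genes with a mean level of at least 50, 4.21%, 6.97% and 3.12% had a knockdown ratio as low as that of *BCL2* or lower. The difference between the treatments (knockdown minus palbociclib) was −0.81, −0.89 and −0.57, with a mean of −0.76.

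The *BCL2* transcript length given in the tables was 5607, 5765 and 3603 bases in the knockdown tables of NALM-6 cells, RS4;11 cells and BV-173 cells. In the palbociclib tables it was 6492, 6429 and 6329 bases. The BV-173 value was 56.9% of its counterpart, and 0.0397% of 10070 genes had a length ratio as low or lower. The part of this in the *BCL2* levels was not tested.

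Promoter sequences were taken from RefSeq (GRCh38.p14) as windows of 300 bases, from 250 bases before to 50 bases after an annotated start. Of the 10 members 9 had an entry, with 11 windows in all, and *MCL1* had none. They were searched on both strands for CACGTG (the E-box), GTAAACA (a FOXO motif), CCAAT (the CCAAT box), GGGCGG (the GC box), TTTGGCGC and TTTCCCGC (E2F motifs). Of all 35116 promoter windows, 7.26% held CACGTG, 3.42% GTAAACA, 34.6% CCAAT, 45% GGGCGG, 0.652% TTTGGCGC and 1.63% TTTCCCGC. None of the 11 windows held either E2F motif. The *BCL2* window is shown because *BCL2* was the member lower by at least 1.5-fold with the *CCND3* shRNA in each line. It lies on the minus strand at chr18:63319720-63320019 and held none of the 6 motifs, so it has no capitals.

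BCL2: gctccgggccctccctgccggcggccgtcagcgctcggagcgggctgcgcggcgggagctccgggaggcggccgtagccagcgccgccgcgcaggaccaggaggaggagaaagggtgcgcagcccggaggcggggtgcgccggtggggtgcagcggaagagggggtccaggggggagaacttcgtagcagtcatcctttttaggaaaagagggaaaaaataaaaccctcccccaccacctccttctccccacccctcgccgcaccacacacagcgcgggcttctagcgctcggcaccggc

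*BCL2L1* (NCBI gene 598), which encodes BCL-XL, stayed within 1.5-fold of its control after knockdown in each line. Its level with the *CCND3* shRNA was 1741 in NALM-6 cells, 1673 in RS4;11 cells and 1551 in BV-173 cells, against 1602, 1665 and 1486 with scrambled shRNA. In the palbociclib groups it was 2879, 2512 and 2001, against 1808, 1764 and 2473 with DMSO. The palbociclib groups of NALM-6 and RS4;11 lay above their controls (log2 ratios 0.67 and 0.51) and that of BV-173 below (−0.31). After knockdown the *BCL2L1* ratios were 0.12, 0.01 and 0.06, and those of RS4;11 and BV-173 turned to −0.02 and −0.04 when group totals were made equal.

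*MCL1* (NCBI gene 4170), a short-lived survival protein, had the narrowest range of ratios among the members. With the *CCND3* shRNA its level was 5957 in NALM-6 cells, 5493 in RS4;11 cells and 3032 in BV-173 cells, against 5078, 5244 and 3184 with scrambled shRNA. With palbociclib it was 5634, 5090 and 2733, against 5094, 4984 and 2689 with DMSO. The 6 log2 ratios of *MCL1* ranged from −0.07 to 0.23, and BV-173 cells had the lowest levels under every condition.

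*BCL2A1* (NCBI gene 597), a survival gene induced by NF-kB, had very low levels in NALM-6 cells, from 0.155 to 1.84. In RS4;11 cells its level was 24.7 with the *CCND3* shRNA and 18.6 with scrambled shRNA, and 47 with palbociclib and 9.55 with DMSO. The palbociclib ratio of RS4;11 (2.30) was the only *BCL2A1* ratio past 1.5-fold. The spread of ratios depended on the level in these tables. Genes with a mean level under 1 had log2 ratios with an SD from 0.11 to 0.41, against 0.31 to 0.85 at a mean level of 1000 or more. In each comparison the SD exceeded both at a mean level of 10 to 100 (0.46 to 1.18), the band of *BCL2A1* in RS4;11 cells with palbociclib (SD 1.10).

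The shares of the survival members can be set out per length within a group. *BCL2* made up 3.91% of their summed level per kilobase in NALM-6 cells with the *CCND3* shRNA and 8.31% with scrambled shRNA. In RS4;11 cells the *BCL2* share was 18.1% and 28.1%, and in BV-173 cells 11.9% and 17.4%. *MCL1* held the largest share in these groups, 66.1%, 55.1% and 50.1% after knockdown against 61.5%, 47.9% and 48.8% with scrambled shRNA. With palbociclib the *BCL2* share was 3.98%, 24.8% and 17.2%, against 5.56%, 26.4% and 16.6% with DMSO. *BCL2L1* took a larger share with palbociclib than with DMSO in NALM-6 cells (42.5% against 33.5%) and RS4;11 cells (31.7% against 25.8%), and a smaller one in BV-173 cells (43.6% against 48.6%). The size of each share rests on the transcript lengths used. In BV-173 cells the *BCL2* length was 3603 bases for the knockdown comparison and 6329 for palbociclib. The *BCL2* shares of these 2 comparisons are thus not on a common length.

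*BBC3* (NCBI gene 27113, chromosome 19, 47220824 to 47232860) encodes PUMA, a BH3-only protein that binds all survival members. Its level with the *CCND3* shRNA was 234 in NALM-6 cells, 606 in RS4;11 cells and 345 in BV-173 cells, against 175, 496 and 272 with scrambled shRNA. Palbociclib-treated cells had levels of 126, 326 and 252, against 320, 426 and 439 with DMSO. *BBC3* thus lay above its control in each line after knockdown and below it in each line with palbociclib. The log2 ratio was 0.42, 0.29 and 0.34 after knockdown, short of 1.5-fold throughout, and −1.34, −0.38 and −0.80 with palbociclib. The difference between the treatments was 1.76, 0.67 and 1.14, with a mean of 1.19. Among all 13307 genes, 1.84% had a mean difference as high or higher. The controls were not alike, since the *BBC3* level with DMSO was 1.83-fold that with scrambled shRNA in NALM-6 cells and 1.62-fold in BV-173 cells, across separately normalized tables.

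*PMAIP1* (NCBI gene 5366, chromosome 18, 59899996 to 59904305) encodes NOXA, a BH3-only protein that binds MCL1 and promotes its breakdown. Its level with the *CCND3* shRNA was 2145 in NALM-6 cells, 1578 in RS4;11 cells and 2619 in BV-173 cells, against 2498, 2658 and 2306 with scrambled shRNA. Under palbociclib it was 1184, 1037 and 1158, against 2143, 2663 and 1667 with DMSO. All 3 palbociclib levels of *PMAIP1* were below their controls and close to each other, whereas the knockdown lay below control in 2 lines and above it in BV-173 cells. The log2 ratio was −0.22, −0.75 and 0.18 after knockdown and −0.86, −1.36 and −0.53 with palbociclib. The difference between the treatments was nearly the same in each line, 0.64, 0.61 and 0.71. With equal group totals it was 0.53 in NALM-6 cells, short of 1.5-fold.

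The windows of *BBC3* and *PMAIP1* are shown together because both genes had knockdown ratios above their palbociclib ratios in each line. That of *BBC3* lies on the minus strand at chr19:47232618-47232917, with capitals for CACGTG at −232 and ATTGG (its reverse complement, CCAAT, is the CCAAT box) at −87, counted from the start to the first base of the match. That of *PMAIP1* lies on the plus strand at chr18:59899746-59900045, with capitals for 4 GC boxes (GGGCGG, read as CCGCCC on the other strand) at −146, −106, −94 and −82. The 2 windows had no motif of the search in common.

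BBC3: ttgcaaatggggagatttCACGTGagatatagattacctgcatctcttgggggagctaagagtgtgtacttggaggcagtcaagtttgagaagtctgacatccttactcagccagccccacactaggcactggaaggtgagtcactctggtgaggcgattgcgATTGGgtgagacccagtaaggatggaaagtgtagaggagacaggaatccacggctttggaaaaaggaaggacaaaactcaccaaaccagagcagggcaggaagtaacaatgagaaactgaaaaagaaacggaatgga

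PMAIP1: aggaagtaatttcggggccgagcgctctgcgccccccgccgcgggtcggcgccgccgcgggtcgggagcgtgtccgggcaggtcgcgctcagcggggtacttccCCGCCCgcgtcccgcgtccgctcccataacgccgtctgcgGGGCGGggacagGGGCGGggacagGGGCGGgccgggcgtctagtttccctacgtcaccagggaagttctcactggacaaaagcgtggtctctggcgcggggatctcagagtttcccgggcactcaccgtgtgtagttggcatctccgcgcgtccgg

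*BMF* (NCBI gene 90427, chromosome 15, 40087890 to 40108879) encodes a BH3-only protein that is held at the cytoskeleton through dynein light chain. Its level with the *CCND3* shRNA was 380 in NALM-6 cells, 1666 in RS4;11 cells and 1456 in BV-173 cells, against 394, 661 and 1242 with scrambled shRNA. After palbociclib it was 343, 1531 and 1365, against 51.3, 369 and 1119 with DMSO. The palbociclib groups of NALM-6 and RS4;11 stood far above their controls, as did the knockdown of RS4;11. The log2 ratio was −0.05, 1.33 and 0.23 after knockdown and 2.74, 2.05 and 0.29 with palbociclib. Palbociclib thus gave a level of 6.69 times control in NALM-6 cells and 4.15 times control in RS4;11 cells.

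The NALM-6 ratio of *BMF* rests on a low control. The *BMF* level was 394 with scrambled shRNA and 51.3 with DMSO, a log2 ratio of 2.94 across separately normalized tables, and 0.0193% of 10345 genes had a ratio between these controls as high or higher. The level with palbociclib (343) was close to that of both groups of the knockdown comparison (380 and 394). Which control is typical of NALM-6 cells was not tested. In RS4;11 cells the controls were 661 and 369, and in BV-173 cells 1242 and 1119. The upstream window of *BMF*, the member with the highest mean palbociclib ratio over the lines (1.69), lies on the minus strand at chr15:40108830-40109129. Its capitals mark ATTGG at −75, GGGCGG at −45 and CCGCCC at 40, and a second *BMF* window downstream held none of the 6 motifs.

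BMF: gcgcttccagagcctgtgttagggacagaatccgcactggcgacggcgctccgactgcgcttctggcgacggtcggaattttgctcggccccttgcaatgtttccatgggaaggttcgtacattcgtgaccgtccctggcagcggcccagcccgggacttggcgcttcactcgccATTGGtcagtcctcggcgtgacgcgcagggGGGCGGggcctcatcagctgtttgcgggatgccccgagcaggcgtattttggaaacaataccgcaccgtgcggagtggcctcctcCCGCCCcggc

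*BCL2L11* (NCBI gene 10018) encodes BIM, the main BH3-only protein of lymphocyte deletion, which binds every survival member. With the *CCND3* shRNA its level was 1037 in NALM-6 cells, 636 in RS4;11 cells and 862 in BV-173 cells, against 1089, 669 and 925 with scrambled shRNA. With palbociclib it was 816, 407 and 730, against 835, 595 and 836 with DMSO. All 6 ratios of *BCL2L11* lay slightly or moderately below 0, from −0.55 to −0.03, and none reached 1.5-fold. The value of −0.03, from NALM-6 cells with palbociclib, turned to 0.09 with equal group totals. Its window was the only one of the members' windows with the FOXO motif GTAAACA, at −223, besides 3 GC boxes and 1 CCAAT. Per kilobase, *BCL2* stood at 0.41 times *BCL2L11* in NALM-6 cells after knockdown and 0.76 times with scrambled shRNA. The same quotient was 3.50 and 5.68 in RS4;11 cells and 0.96 and 1.42 in BV-173 cells, lower after knockdown in each line. With palbociclib it was 0.64, 9.26 and 2.04 in NALM-6 cells, RS4;11 cells and BV-173 cells, against 0.69, 5.81 and 1.90 with DMSO. The size of each quotient rests on the table lengths, and the *BCL2* length differed between the 2 tables of each line.

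*BAX* (NCBI gene 581), an effector, had levels of 560, 651 and 1644 with the *CCND3* shRNA in NALM-6 cells, RS4;11 cells and BV-173 cells, against 620, 790 and 1351 with scrambled shRNA. With palbociclib its level was 447, 734 and 1358, against 906, 804 and 1031 with DMSO. Under both treatments *BAX* lay below control in NALM-6 and RS4;11 cells and above control in BV-173 cells. The log2 ratio was −0.15, −0.28 and 0.28 after knockdown and −1.02, −0.13 and 0.40 with palbociclib, so that only NALM-6 cells with palbociclib passed 1.5-fold. The *BAX* window held 4 E-boxes, at −138, −93, −45 and −14, and the *BBC3* window was the other one with this motif. It is shown for these repeats, on the plus strand at chr19:48954625-48954924, with capitals also for 2 ATTGG (−203 and −148) and for GGGCGG at −52 and CCGCCC at 9.

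BAX: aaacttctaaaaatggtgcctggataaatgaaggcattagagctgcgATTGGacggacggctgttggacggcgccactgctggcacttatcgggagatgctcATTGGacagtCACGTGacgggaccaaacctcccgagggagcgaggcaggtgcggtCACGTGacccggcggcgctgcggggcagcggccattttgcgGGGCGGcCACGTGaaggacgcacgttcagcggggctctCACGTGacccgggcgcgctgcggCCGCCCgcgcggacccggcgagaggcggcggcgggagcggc

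*BAK1* (NCBI gene 578), the other effector, had levels of 910, 872 and 830 with the *CCND3* shRNA against 826, 653 and 662 with scrambled shRNA. With palbociclib its level was 952, 985 and 909, against 970, 688 and 624 with DMSO. *BAK1* lay above control in 5 of the 6 comparisons, with log2 ratios of 0.14, 0.42 and 0.33 after knockdown and −0.03, 0.52 and 0.54 with palbociclib. The value of −0.03 turned to 0.10 with equal group totals. None of these ratios reached 1.5-fold.

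**Figure D2:**
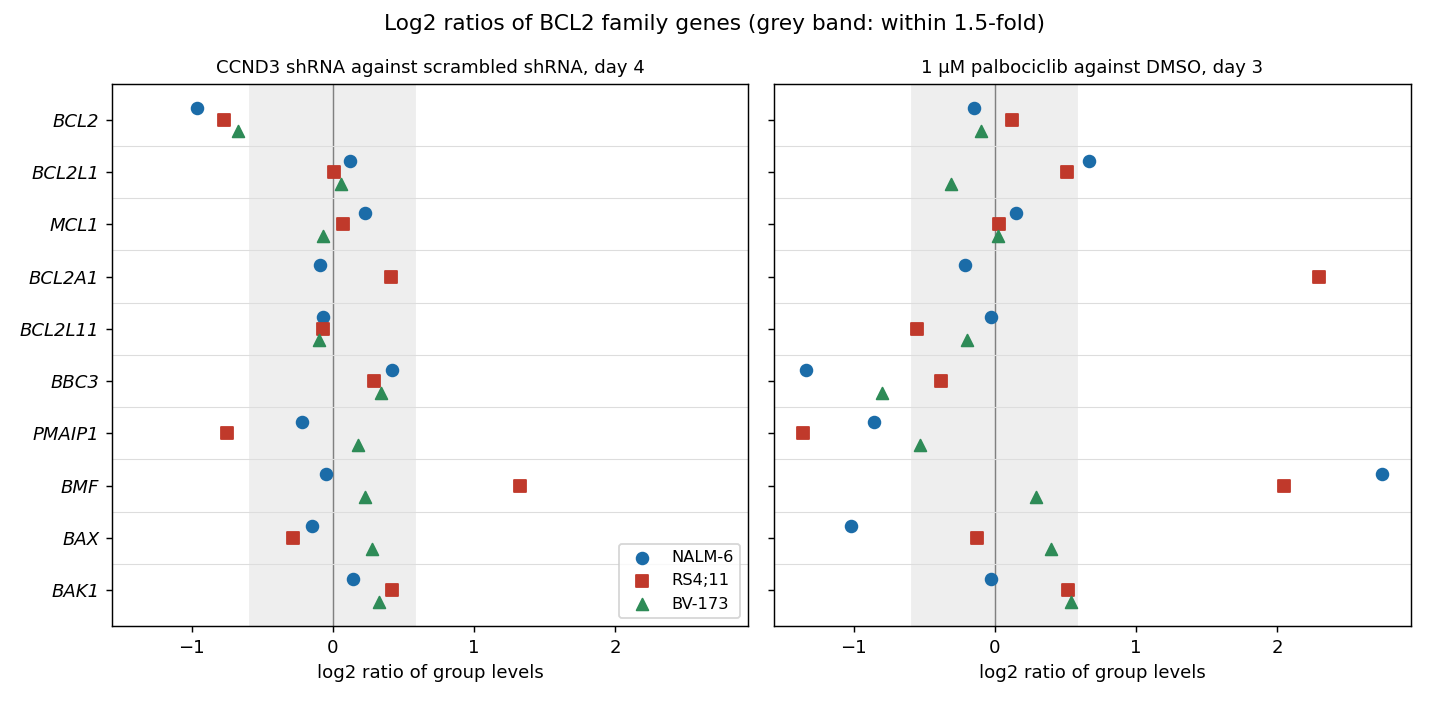
Log2 ratios of treated over control levels (horizontal axis) of each member (rows) after *CCND3* knockdown (left panel) and with palbociclib (right panel), 1 symbol per cell line, with ratios within 1.5-fold in the grey band. *BCL2* stood left of the band in each line after knockdown (−0.96, −0.77 and −0.67) and within it with palbociclib, and *BBC3* stood on opposite sides of 0 under the treatments.

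Counted over the family, knockdown left most members within 1.5-fold. In NALM-6 cells 0 members were higher, against 7.82% of all genes, and 1 of 10 was lower (*BCL2*), against 8.47%. In RS4;11 cells 1 member was higher (*BMF*; 9.73% of all genes) and 2 were lower (*BCL2* and *PMAIP1*; 9.72%). In BV-173 cells 0 of 9 were higher (3.32% of all genes) and 1 was lower (*BCL2*; 4.78%). With palbociclib a larger share of all genes stood past 1.5-fold. In NALM-6 cells 2 members were higher (*BCL2L1* and *BMF*; 21.4% of all genes) and 3 lower (*BBC3*, *PMAIP1* and *BAX*; 14.9%). In RS4;11 cells 2 were higher (*BCL2A1* and *BMF*; 16.7%) and 1 lower (*PMAIP1*; 15%), and in BV-173 cells 0 were higher (13.6%) and 1 lower (*BBC3*; 11.9%).

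Over the 3 lines, 3.45% of the 29 pairs of member and line were higher after knockdown and 13.8% lower, against 7.04% and 7.72% of all pairs of gene and line. With palbociclib 13.8% were higher and 17.2% lower, against 17.3% and 14%. With 1 to 5 pairs behind each share, the family as a whole stood near the background, and its pattern lay in single members. The median log2 ratio of the members ranged from −0.10 to 0.18 over the 6 comparisons, and that of all genes from −0.01 to 0.06.

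The patterns across lines were carried by 4 members. The counts of these patterns were not planned and were chosen after seeing the data. The shares of all genes beside them are therefore description only. *BCL2* was the 1 of 9 members lower by at least 1.5-fold in all 3 knockdown comparisons, as were 1.83% of the 13307 genes. It was lower by this much in no palbociclib comparison, and both conditions held for 12 genes (0.0902%), *CCND3* among them. *BBC3* was the 1 member above control in all 3 knockdown and below control in all 3 palbociclib comparisons, as were 1.07% of genes. *BBC3* and *PMAIP1* were the 2 members with a knockdown ratio above the palbociclib ratio by at least 1.5-fold in each line, against 2.83% of genes, and 0 members had the opposite pattern, against 1.86%. With equal group totals *PMAIP1* left this group and *BBC3* remained, and *BCL2* (−0.92, −0.91 and −0.61) came to show the opposite pattern. With palbociclib, *BBC3* and *PMAIP1* were lower by at least 1.5-fold in at least 2 lines (12.7% of genes) and *BMF* was higher by as much (14%).

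The difference between the treatments was tested over the 3 lines with an exact two-sided sign-flip permutation test, whose smallest possible p is 0.25, so that none of the 9 members could pass 0.05. *BCL2*, *BBC3*, *PMAIP1* and *BMF* reached p = 0.25 in this exact test (n = 3 lines), each with the same direction in 3 of 3 lines. A shared direction was common, as 47.4% of the 13307 genes had one, and 4 of 9 members is close to that share. The mean differences were −0.76 for *BCL2*, 1.19 for *BBC3*, 0.65 for *PMAIP1* and −1.19 for *BMF*. Of the 13307 genes 5.27% had a difference as low as that of *BCL2* or lower and 1.32% as that of *BMF*, and 1.84% had one as high as that of *BBC3* or higher and 5.5% as that of *PMAIP1*. That of *BMF* was uneven over the lines (−2.79, −0.72 and −0.06) and became −0.39 without NALM-6 cells, the line with the low DMSO level. For *BCL2L1*, *MCL1*, *BCL2L11*, *BAX* and *BAK1* the mean difference ranged from −0.23 to 0.20 and the lines did not share a direction.

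**Figure D3:**
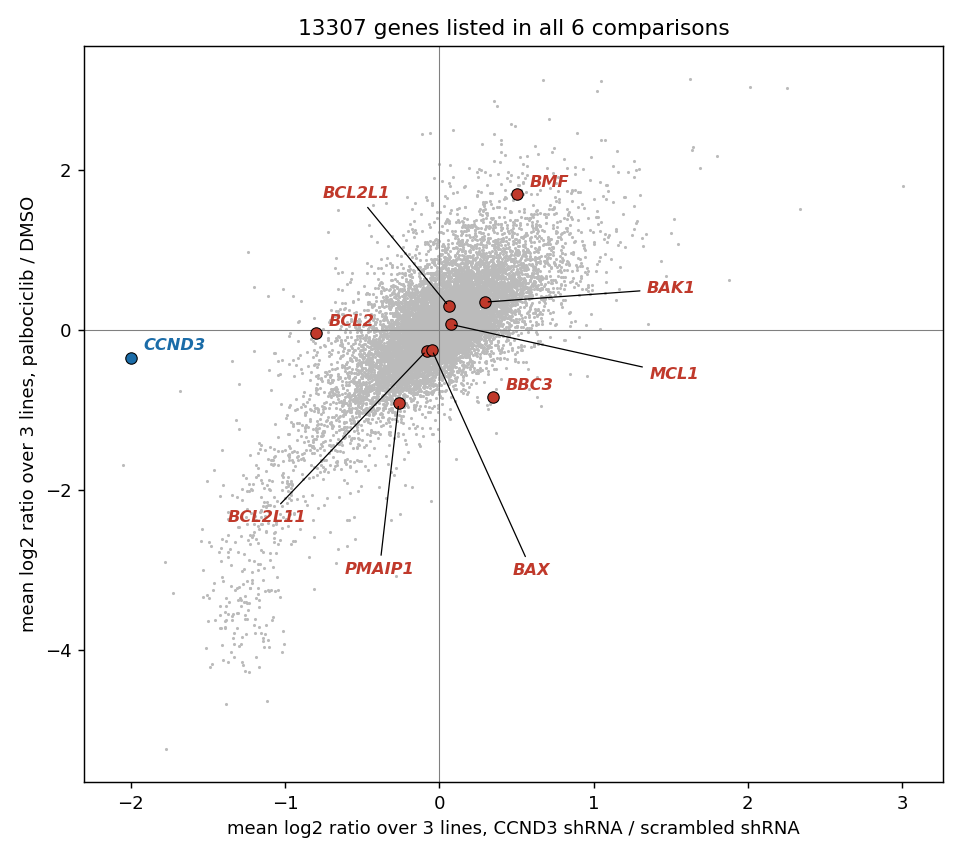
Mean log2 ratio over the 3 lines after *CCND3* knockdown (horizontal axis) and with palbociclib (vertical axis) for the 13307 genes listed in all comparisons (grey), with 9 members (red) and *CCND3* (blue). *BCL2* lay at −0.80 and −0.04, to the left of most genes at its height, *BBC3* at 0.35 and −0.84 and *BMF* at 0.50 and 1.69.

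Other family genes stood near the background. Of 39 pairs of gene and line after knockdown 3 were higher and 4 lower by at least 1.5-fold, where 7.04% and 7.72% of all pairs were. Of 35 with palbociclib 8 were higher and 6 lower, where 17.3% and 14% of all pairs were. The medians were −0.07 and 0.10, against 0.00 and 0.03 for all genes. *HRK*, a BH3-only gene, had knockdown ratios of 1.24, 0.43 and 0.23 and palbociclib ratios of 0.98, 0.84 and −1.09 in NALM-6 cells, RS4;11 cells and BV-173 cells. Its RS4;11 ratios rest on low levels, 8.64 against 6.41 after knockdown and 3.21 against 1.79 with palbociclib. *BIK*, another BH3-only gene, stood at −0.67, −0.22 and −0.76 after knockdown and at 1.01, 0.63 and −1.00 with palbociclib. Its BV-173 ratios likewise rest on low levels, 9.94 against 16.8 after knockdown and 11.8 against 23.6 with palbociclib. Over the lines, the lowest means after knockdown were those of *BIK* (−0.55) and *BCL2L12* (−0.34) and the highest those of *HRK* (0.63) and *BCL2L13* (0.25). With palbociclib they were *BCL2L2* (−0.73) and *BCL2L12* (−0.72) at the low end and *BCL2L15* (0.43) and *HRK* (0.24) at the high end of the genes listed in all 6 tables. *BCL2L10*, listed in 5, had a higher palbociclib mean (0.53) over NALM-6 and RS4;11 cells, at levels from 0.149 to 0.874.

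Downstream of the members, the list of apoptosome genes, caspases and mitochondrial factors had 2 higher and 4 lower of 51 pairs after knockdown, and 3 higher and 4 lower of 51 with palbociclib (medians −0.07 and 0.05). The shares of all pairs were 7.04% and 7.72% after knockdown and 17.3% and 14% with palbociclib, here and for the next list. *CASP2* (−0.55) and *CASP6* (−0.52) had the lowest mean knockdown ratios and *ENDOG* (0.46) and *CASP8* (0.43) the highest. With palbociclib *APAF1* (−0.48) and *HTRA2* (−0.40) were lowest and *ENDOG* (0.65) and *CASP9* (0.40) highest. Among 6 inhibitors of apoptosis, 0 of 18 pairs were higher and 2 lower after knockdown, and 1 was higher and 3 were lower with palbociclib (medians 0.04 and 0.12). The lower ones were all *BIRC5* (survivin, a mitotic gene as well), at −1.31, −1.52 and −0.41 after knockdown and −2.87, −6.42 and −1.57 with palbociclib. *BIRC2* (0.25) and *XIAP* (0.10) had the highest mean knockdown ratios, *XIAP* (0.29) and *BIRC2* (0.13) the highest with palbociclib, and next above *BIRC5* stood *NAIP* (−0.03) after knockdown and *BIRC6* (0.06) with palbociclib.

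Of 7 genes for partners and turnover of the members, 0 of 21 pairs were past 1.5-fold under either treatment (medians −0.04 and −0.03), where 7.04% of all pairs were higher and 7.72% lower after knockdown and 17.3% and 14% with palbociclib. The mean knockdown ratios ran from −0.26 for *DYNLL1*, the dynein light chain, and −0.14 for *HUWE1*, an MCL1 ubiquitin ligase, to 0.10 for *MARCH5* and 0.26 for *DYNLL2*, which binds BMF. With palbociclib they ran from −0.17 for *HUWE1* and −0.14 for *FBXW7* to 0.17 for *BTRC* and 0.31 for *DYNLL1*.

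Transcription factors known to act on members had 3 higher and 6 lower of 33 pairs after knockdown and 1 higher and 12 lower of 33 with palbociclib (medians 0.03 and −0.15). Of all pairs 7.04% were higher and 7.72% lower after knockdown, and 17.3% and 14% with palbociclib. *ATF4*, a stress factor that activates *PMAIP1* and *BBC3* in other settings, had ratios of −1.02, −1.08 and −0.99 with palbociclib and −0.00, −0.16 and 0.14 after knockdown. *DDIT3*, its target CHOP, stood at −1.70, −1.75 and −2.37 with palbociclib and at −0.73, −0.32 and 0.39 after knockdown. *E2F1* was the lowest over the lines under both treatments (−1.36 and −2.74), followed by *TP73* after knockdown (−0.61) and *DDIT3* with palbociclib (−1.94). The *TP73* knockdown mean rests mostly on RS4;11 cells (−1.38, 222 against 577). In NALM-6 cells its ratio was −0.46 at low levels (13 against 17.8), and in BV-173 cells 0.00 (0.326 in both groups). The highest were *STAT5A* (0.36) and *FOXO1* (0.33) after knockdown and *BCL6* (0.80) and *FOXO3* (0.06) with palbociclib. *BCL6*, a repressor, was at −1.96, 0.18 and 0.73 after knockdown in NALM-6 cells, RS4;11 cells and BV-173 cells. With palbociclib it stood at −0.14, 0.34 and 2.22. The controls differed, as its level with scrambled shRNA was 1043, 2241 and 798 in the same order, and with DMSO 293, 2796 and 313.

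**Figure D4:**
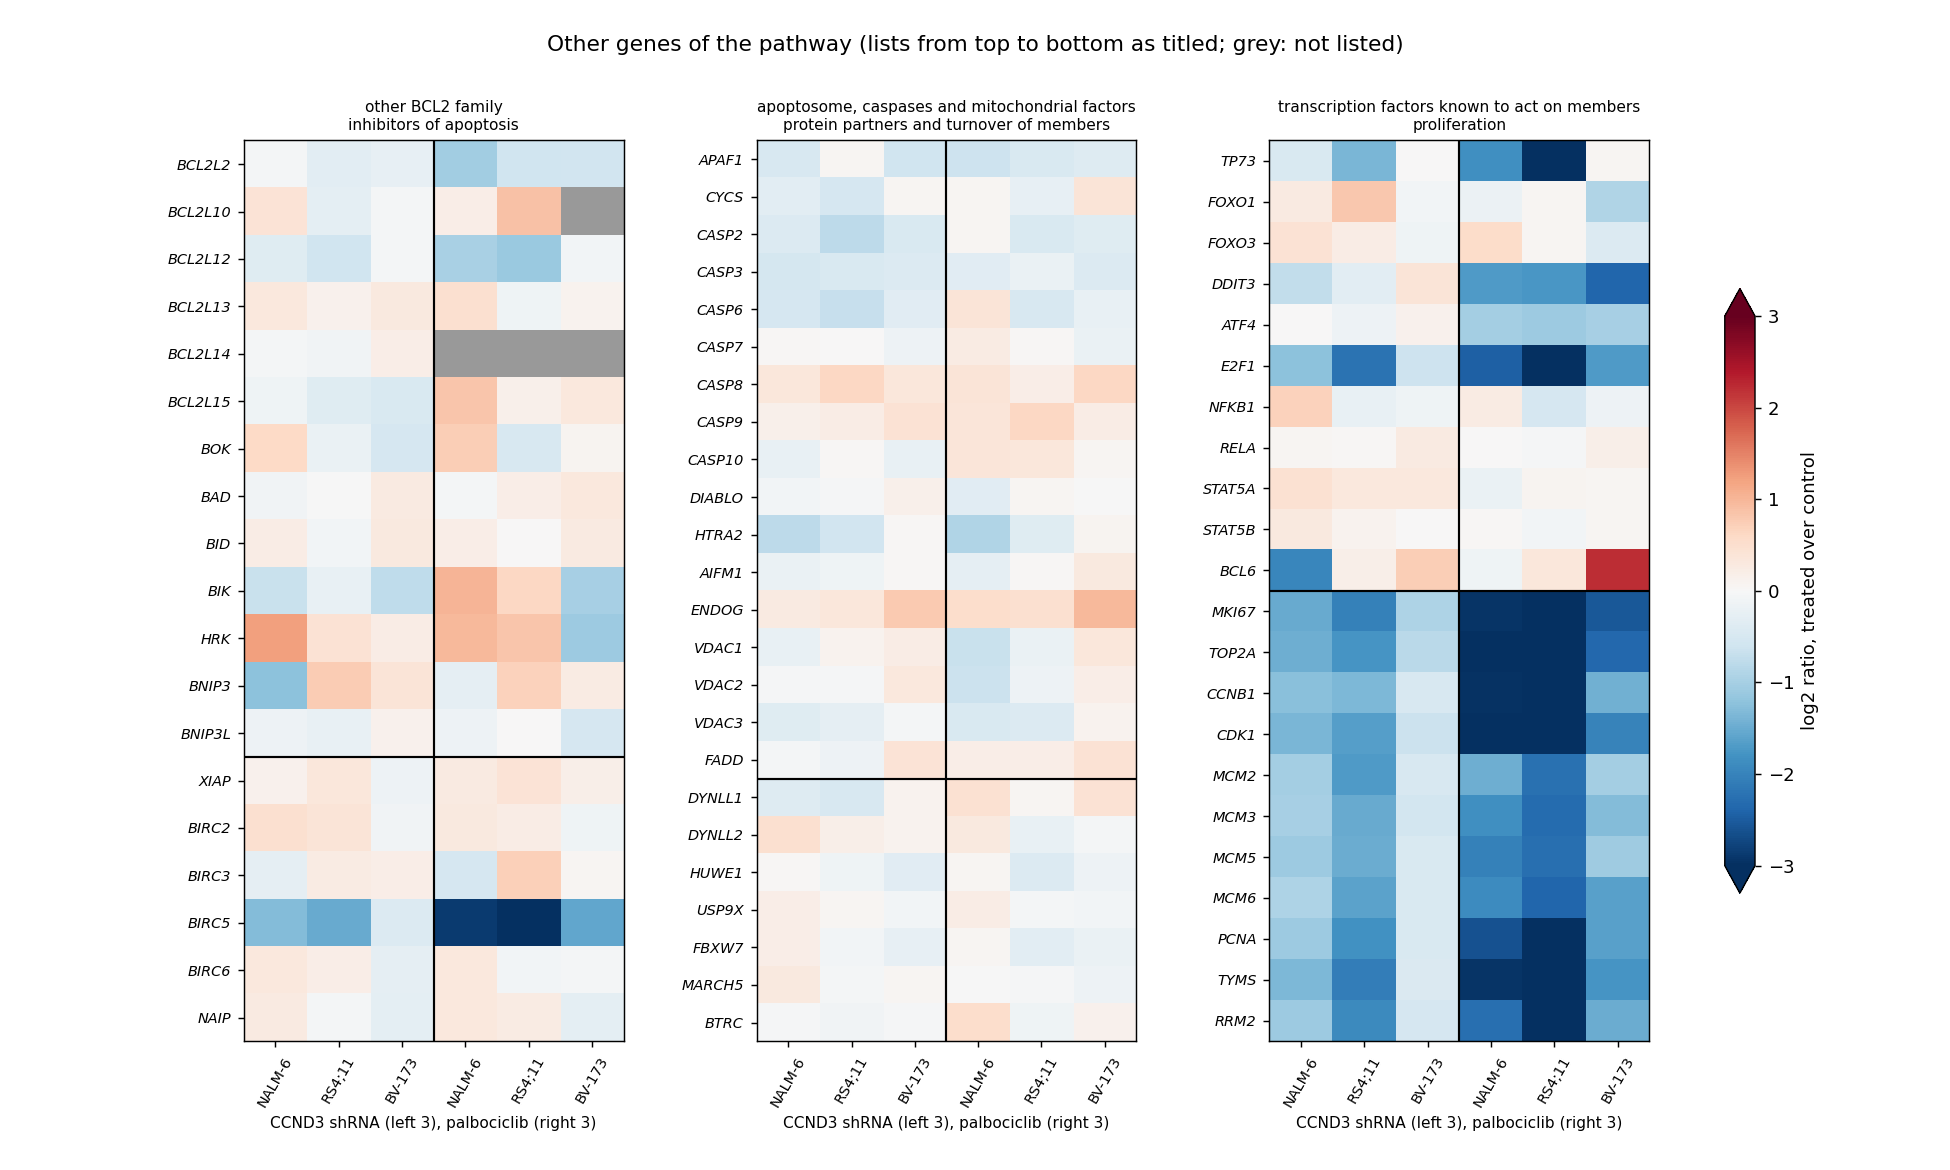
Log2 ratios of treated over control levels (colour, capped at 3 either way, grey where a gene was not listed) of other genes of the pathway (rows, by list) in the 6 comparisons (columns, *CCND3* shRNA left of the line and palbociclib right of it). *ATF4* and *DDIT3* were lower with palbociclib in each line, and proliferation genes such as *MKI67* were lower throughout.

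Proliferation genes were measured to place the treatments beside each other. All 33 pairs were lower by at least 1.5-fold with palbociclib and 25 of 33 after knockdown (medians −2.31 and −1.10), against 14% and 7.72% of all pairs. *MKI67* (−1.49 and −4.21) and *TOP2A* (−1.35 and −4.02) had the lowest means. *MCM6* (−0.99) and *MCM5* (−1.01) were highest after knockdown and *MCM2* (−1.57) and *MCM5* (−1.79) with palbociclib. In BV-173 cells 3 of 11 passed 1.5-fold after knockdown (median −0.49).

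The labelled cell type was checked against its markers. The 8 B-lineage markers were listed in each comparison, with summed levels from 49580 to 74210 per group, led by *PAX5*, *CD79A* or *IGLL1* in the controls. Of 24 pairs, 4 were higher and 1 lower after knockdown and 5 higher and 5 lower with palbociclib (medians 0.07 and −0.04; all pairs: 7.04% and 7.72%, then 17.3% and 14%), with *CD22* (1.04) and *CD79B* (0.63) highest and *PAX5* (−0.16) and *IGLL1* (−0.12) lowest over the lines after knockdown. With palbociclib *CD79A* (1.13) and *VPREB1* (0.48) were highest and *IGLL1* (−0.63) and *EBF1* (−0.40) lowest. *CD79A* was the marker past 1.5-fold with palbociclib in each line (1.82, 0.86 and 0.71) and in none after knockdown. T cell markers summed to 7.7 or less per group, with *TRAC* not listed, and erythroid and platelet markers to 1.22 or less, with *PF4* and *PPBP* not listed. Myeloid markers summed from 92.8 to 1168, led in the controls by *LYZ* or *CSF1R*, with *S100A8* and *S100A9* not listed. Of the fibroblast and epithelial markers *PDGFRA* alone was high, at 3913 and 7331 in the NALM-6 controls, and *COL1A1* reached 101 and 122 in the RS4;11 controls. Over the lines, *MPO* had the lowest myeloid means (−0.69 and −0.79, the latter from palbociclib ratios of 2.31, −3.68 and −1.00), *LYZ* the highest after knockdown (0.21) and *CSF1R* with palbociclib (1.15). The *CSF1R* palbociclib ratios were 1.80, −0.16 and 1.83 in NALM-6 cells, RS4;11 cells and BV-173 cells. That of NALM-6 rests on low levels, 2.22 against 0.64. Of the pairs of these other markers, 4 of 36 were higher and 3 lower after knockdown, and 6 of 33 higher and 4 lower with palbociclib, beside the same shares of all pairs. Their part in the ratios of the members was not tested.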

How the data were processed

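For the sequenced lines, the authors' notes name SOAPnuke for read filtering, Bowtie2 for mapping (reference hg38), RSEM for gene levels and DESeq2 for the comparisons. Each of the deposited tables holds, for the 2 groups of a comparison, a signal scaled by the authors within that comparison, a transcript length, and columns of fold changes and p-values of their own comparisons, which were not used here. With 1 value per group, the levels carry no replicate spread and depth is unknown, and counts per sample were not analysed here.

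Log2 ratios of the group signals were computed without a pseudocount, since no gene stood at 0. Genes were counted past 1.5-fold. The treatments were compared over the 3 lines with an exact sign-flip permutation test. Alternatives were median-centred ratios, equal totals, pseudocounts of 1 and 10, a lower threshold (0.32 on the log2 scale) and one of 2-fold, a mean level of at least 50, leaving out each line, and the longest GENCODE 44 transcript. Named genes were the members, *CCND3*, the 2 highest and 2 lowest genes of each list per treatment, and list genes past 1.5-fold in all 3 lines under 1 treatment only. Of the planned lists, 2 genes and 1 whole list are not reported here. *HRK*, *BIK* and *BCL6* were described further after their values were seen. *BCL2L15* was described further for its opposite directions under the treatments. Members and lists were chosen with earlier results of these data known. Steps were tested on simulated data (Python 3.11.15, scipy 1.17.1, pandas 2.3.3, numpy 2.4.6, matplotlib 3.10.9).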

Additional observations from a re-analysis of the deposited data

Results flagged for a closer look

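*BBC3* lay on opposite sides of its control under the treatments in every cell line. After *CCND3* knockdown its log2 ratio was 0.42 in NALM-6 cells, 0.29 in RS4;11 cells and 0.34 in BV-173 cells, short of 1.5-fold throughout. With palbociclib it was −1.34, −0.38 and −0.80. The *BBC3* level with scrambled shRNA was 175, 496 and 272 in the same order, and with DMSO 320, 426 and 439. The knockdown levels of NALM-6 and BV-173 cells (234 and 345) lay below those with DMSO. The mean of the difference (knockdown minus palbociclib) over the 3 lines was 1.19. It was not tested on replicates here, and over the lines the exact sign-flip permutation test gave its smallest possible p of 0.25 (n = 3 lines).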

How the results depend on the processing

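No paired analysis was possible because the tables hold 1 value per group and no column carries a replicate number, and for the same reason leaving out single replicates could not be run. Depth is unknown, so the precision of single levels cannot be stated.

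The member counts past the fold threshold moved most with the threshold itself. At the lower threshold (0.32 on the log2 scale) the knockdown counts became 2 in NALM-6 cells, 5 in RS4;11 cells and 3 in BV-173 cells (from 1, 3 and 1), and the palbociclib counts 7 in RS4;11 and 4 in BV-173 cells (from 3 and 1). At 2-fold the knockdown counts were 0 in NALM-6 cells, 1 in RS4;11 cells and 0 in BV-173 cells, and the palbociclib counts 3 in NALM-6 (from 5) and 0 in BV-173 cells. With equal totals the palbociclib count of BV-173 cells was 2, as *PMAIP1* came to lie past 1.5-fold beside *BBC3*. Chosen after seeing the data were the counts across lines and their alternatives. The 1 member lower in all knockdown and in no palbociclib comparison became 0 at 2-fold, and the 2 members with the knockdown ratio above the palbociclib ratio in each line became 1 with equal totals and 0 at 2-fold. With equal totals *BCL2* came to lie below by 1.5-fold in each line, where 0 members had done so. With a mean level of at least 50, *BCL2A1* dropped out of the palbociclib count of RS4;11 cells (3 to 2). The other 45 of 59 values of such counts, and of the groups led by *MCL1* per length, stayed within 1.5 times, that count included.

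Of 210 alternative values of single members, judged against the spread over the lines, 206 were counted as unchanged, 2 as moved and 2 as reversed. Without RS4;11 cells, *BCL2A1* rests on NALM-6 cells alone, and its palbociclib mean of 1.04 became −0.21 and its difference of −0.88 became 0.12. These were the reversed values. Without NALM-6 cells the same *BCL2A1* values became 2.30 and −1.89. They moved about as far but kept their sign, and they were counted as unchanged. Among values counted as unchanged, that of *BAX* turned without NALM-6 cells (palbociclib mean −0.25 to 0.13, difference 0.20 to −0.13), and some means nearer to 0 turned as well. Without RS4;11 cells the knockdown mean of *BMF* went from 0.50 to 0.09 and that of *PMAIP1* from −0.26 to −0.02. The values counted as moved were the *BCL2L11* knockdown mean (−0.08, or −0.12 with equal totals) and the *PMAIP1* difference (0.65, or 0.60 with equal totals).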

Other observations

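Controls of the same line were not alike for every member, across separately normalized tables. In BV-173 cells the *BCL2* level was 1050 with scrambled shRNA and 2042 with DMSO, a log2 ratio of −0.96, and 1.18% of genes with a mean level of at least 50 had a ratio as low or lower. *BCL2L1* stood at 1486 and 2473 in these controls (−0.73). In NALM-6 cells *BCL2A1* was 1.84 with scrambled shRNA and 0.179 with DMSO, and *BAX* was 620 and 906. In RS4;11 cells the controls of *BCL2*, *BCL2L1*, *MCL1*, *PMAIP1*, *BAX* and *BAK1* lay within 1.08-fold of each other. Those of *BCL2L11* and *BBC3* stood 1.12-fold and 1.16-fold apart, and those of *BMF* and *BCL2A1* 1.79-fold and 1.95-fold. *CD79A*, a B-lineage marker, was 6295 with scrambled shRNA and 1870 with DMSO in NALM-6 cells.

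*BCL2L15*, a little-studied family gene with a mean level of 14.9, was below control in each line after knockdown (log2 ratios −0.13, −0.36 and −0.45) and above it in each line with palbociclib (0.83, 0.16 and 0.31). The controls were unlike, at 23.8, 15.7 and 20 with scrambled shRNA and 9.2, 10.5 and 10.2 with DMSO in NALM-6 cells, RS4;11 cells and BV-173 cells, across separately normalized tables. The gene was picked for this pattern, the share of all genes with it was not counted, and it was not tested on replicates.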
